A study of Mus musculus with 4 samples.

Results

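The genes examined here are the readers and erasers of N6-methyladenosine (m6A) on RNA: the 5 YTH-domain readers Ythdf1, Ythdf2, Ythdf3, Ythdc1 and Ythdc2, the further readers Prrc2a, Fmr1 and Hnrnpa2b1, and the demethylases Fto and Alkbh5. They were found by gene symbol in the deposited expression table, where all 10 are present among 55426 rows. Between Dox-treated and untreated retinal organoids 0 of the 10 passed the test's threshold, and their levels spanned a 414-fold range that had the same order of group means in both conditions.

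Poly(A) RNA was sequenced from mouse retinal organoids at day 6, with 4 libraries in all. The cells are labelled Rx:GFP Mettl3 KO and carry a Dox-inducible HA-METTL3, so every library is labelled as the same knockout line, described only by this name, and none is labelled wild-type. All 4 were differentiated in GMEM with 5% KSR, NEAA, β-ME, sodium pyruvate and AGN at 0.1 µM. Doxycycline (Dox) was given at 2 µg/ml for 6 days to 2 of them, and the other 2 received none. The titles call the samples EV and EV+Dox without explaining EV, so the labels leave unsettled which construct these titles refer to, and that Dox induced METTL3 in these libraries is not shown by them. Nothing in the labels says that the 2 libraries of a group came from separate cultures, so their spread may be technical. The limma p-values below rest on spread between these libraries, not on a gene's own spread alone. Of the test's 5.5 degrees of freedom, 3.5 come from sharing variance between genes.

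METTL3 works in a nuclear complex that methylates adenosines in messenger RNA. Reader proteins recognise the mark, most directly through the YTH domain, and steer the RNA to splicing, export, translation or decay, whereas FTO and ALKBH5 are oxygenases that can remove the methyl group. In the developing nervous system the mark is known for hastening the turnover of transcripts of transcription factors as progenitors change fate. The comparison sets the levels of the genes that read or erase the mark with Dox against those without.

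The Mettl3 level and the tissue markers were examined first. Mettl3 itself was at 40.3 and 38.0 FPKM (fragments scaled to transcript length and to the library's total) without Dox, and at 45.2 and 46.4 FPKM with it. The Dox libraries were both higher, but the difference did not pass in limma (log2 fold change 0.22, adjusted p = 0.122). Without Dox the gene was thus above the median of the tested genes, 14.4 FPKM, and this level does not show the knockout. The altered part of the gene is not given in the sources used here. Whether transcripts of the inducible copy are counted under this gene is not given in the sources used here. At the fitted depth the libraries hold 31700000 to 34900000 fragments. Of 10 retinal progenitor markers, 7 were higher and 1 was lower with Dox past the threshold of 0.05, against 4.44% of all tested genes higher and 4.87% lower, and their summed level went from 506 to 537 FPKM untreated to 1194 to 1359 FPKM with Dox. Rax, Six6, Lhx2, Six3 and Hes1 were among them. Rax (mean 0.97 FPKM untreated) and Six6 (0.01 FPKM in both untreated libraries) met the filter of 1 FPKM only through the Dox libraries. All 7 tested neuron markers were lower (Stmn2, Map2, Elavl4, Nefm, Nefl and Tubb3 with the lowest p-values). The full list summed to 159 to 162 FPKM untreated and 86.5 to 90.3 FPKM with Dox. Dcx, Snap25 and Rbfox3 were below the filter, which Elavl4 (1.11 and 0.78 FPKM with Dox) met only through the untreated libraries. Without a filter 8 of 10 neuron markers were called. Of 10 pigment epithelium markers only 4 were tested, and Pmel, Mitf and Dct were higher. Tyr, Tyrp1, Rpe65, Best1, Ttr and Mlana were below the filter. Mitf (0.93 and 0.97 FPKM untreated) and Dct (0.09 and 0.14) met it only through the Dox libraries. Without a filter 4 of the 10 were called, with a median log2 fold change of 0.38 against 2.95 for the tested 4. Klf4 was the 1 called among 9 tested pluripotent cell markers (lower, adjusted p = 0.0348 in limma). It met the filter only through the untreated libraries, at 0.73 and 0.95 FPKM with Dox. Its call ended without the filter (adjusted p = 0.101 in limma) and when any of the 4 libraries was left out. Likewise Tubb3 lost its call without the first untreated library (adjusted p = 0.0555 in limma). Of 6 tested surface epithelium markers 0 were called in limma, also at an unadjusted p below 0.05, and the 10 mesendoderm markers summed to at most 2.23 FPKM in any library. These marker levels thus differed between the groups that are compared below, and their part in the readers' and erasers' values was not tested. In bulk RNA, fewer cells of a type and less RNA per cell cannot be told apart.

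The 3 Ythdf readers are close paralogues, so their sequences are shown to make plain what the sequencing could separate. The stretch below surrounds the longest run of bases that the coding sequences of Ythdf1 and Ythdf2 share exactly, 22 bases long. It is given 5′ to 3′ as 90 coding bases from GENCODE M21 transcripts, starting at coding position 754 of Ythdf1, 688 of Ythdf2 and 718 of Ythdf3, with bases that differ from Ythdf1 in capitals.
Ythdf1: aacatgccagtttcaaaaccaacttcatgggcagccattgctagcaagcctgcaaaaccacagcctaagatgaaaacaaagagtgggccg
Ythdf2: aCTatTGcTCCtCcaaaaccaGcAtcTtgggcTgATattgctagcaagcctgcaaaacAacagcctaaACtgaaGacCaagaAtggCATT
Ythdf3: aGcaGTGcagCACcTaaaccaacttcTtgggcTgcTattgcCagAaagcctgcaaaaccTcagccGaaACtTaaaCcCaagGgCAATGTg
Even here Ythdf2 differed from Ythdf1 at 24 and Ythdf3 at 27 of the 90 bases. The longest exact run between Ythdf1 and Ythdf3, and between Ythdf2 and Ythdf3, was 17 bases.

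Exact sequence sharing with other genes was small for most members. The transcript with the longest coding sequence was searched for runs of 100 bases that also occur in a transcript of another gene, on either strand. Such runs were found for 3 of the 10. In Ythdf2 they made up 1.44% of the transcript and occurred in 2 other genes. All of these runs were present in the processed pseudogene Gm6823, which was listed at 3.96 to 4.76 FPKM. In Fto they made up 1.44%, shared with the antisense gene 4831440D22Rik, which was listed at no more than 0.06 FPKM. In Ythdc1 they made up 18.7%, all from the overlapping noncoding gene Gm43055, which was listed at 0 in all 4 libraries. For Prrc2a, Fmr1, Hnrnpa2b1, Alkbh5, Ythdf1, Ythdf3 and Ythdc2 no such run was found. Other transcripts of the members were not searched. By position, exons of Fto also overlapped those of Gm45427 on the opposite strand by 304 bases. Exons of Fmr1 overlapped Gm27838 by 72 bases. These 2 genes were listed at no more than 0.03 FPKM.

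The promoters are shown for the highest member and for the lowest that had a promoter window. RefSeq promoter windows of 300 bases (250 before to 50 after the start, GRCm38.p6) matched 8 of the 10 members, without Ythdf3 and Ythdc2. In all 8 the ratio of observed to expected CpG dinucleotides was above 0.6 (0.744 to 1.28, median 0.922), against 76.6% of 9503 tested genes with a promoter window. None of the 8 held TATAAA on either strand, which 6.30% of those tested genes held, and 3 held CCAAT on either strand (Ythdf1, Hnrnpa2b1 and Alkbh5), which 39.6% held. The 250 bases before the start are printed 5′ to 3′ on the gene's strand with each CpG in capitals, for Hnrnpa2b1, the highest member (chr6:51469895-51470144, minus strand, 29 CpG), and for Fmr1, the lowest member with a window (chrX:68678291-68678540, plus strand, 21 CpG).
Hnrnpa2b1: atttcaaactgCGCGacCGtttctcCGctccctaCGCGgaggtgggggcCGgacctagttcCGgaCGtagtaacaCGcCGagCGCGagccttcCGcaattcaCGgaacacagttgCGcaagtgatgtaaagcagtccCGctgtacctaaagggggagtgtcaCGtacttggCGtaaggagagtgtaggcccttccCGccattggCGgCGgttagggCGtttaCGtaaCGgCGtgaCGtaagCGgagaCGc
Fmr1: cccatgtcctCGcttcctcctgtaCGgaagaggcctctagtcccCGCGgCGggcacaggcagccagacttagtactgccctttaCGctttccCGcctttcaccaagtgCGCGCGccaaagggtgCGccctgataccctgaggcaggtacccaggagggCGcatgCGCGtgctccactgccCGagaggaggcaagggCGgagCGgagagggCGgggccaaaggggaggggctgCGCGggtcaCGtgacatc
A CpG-rich window without TATAAA was thus found at both the highest and the lowest of the 8 genes. A ratio above 0.6 and a window without TATAAA were each found in most tested genes, so neither sets the members apart. Ythdc2, the lowest member, had no window.

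Levels were ordered first, over the 4 libraries. Hnrnpa2b1 had a mean of 1536 FPKM, and only 83 of the 13931 tested genes were higher. Prrc2a (97.0 FPKM), Ythdf2 (80.4), Ythdf1 (72.0), Ythdc1 (67.3) and Fto (59.6) formed the next group. Ythdf3 (33.9), Alkbh5 (28.5) and Fmr1 (20.8) followed, and Ythdc2 was lowest at 3.71 FPKM. All but Ythdc2 lay above the median of the tested genes, 14.4 FPKM. Of the 9 neighbouring pairs in this order, 5 had ranges over the 4 libraries that did not overlap. The ranges of Prrc2a and Ythdf2, Ythdf2 and Ythdf1, Ythdf1 and Ythdc1, and Ythdf3 and Alkbh5 did overlap, so these neighbours do not differ beyond the spread over all 4 libraries pooled. Within a library, Ythdf2 nevertheless exceeded Ythdf1, Ythdf1 exceeded Ythdc1 and Ythdf3 exceeded Alkbh5 in 4 of 4 libraries each, and Prrc2a exceeded Ythdf2 in 3 of 4. FPKM levels of different genes also depend on the transcript lengths that the authors' counting assumed.

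**Figure D1:**
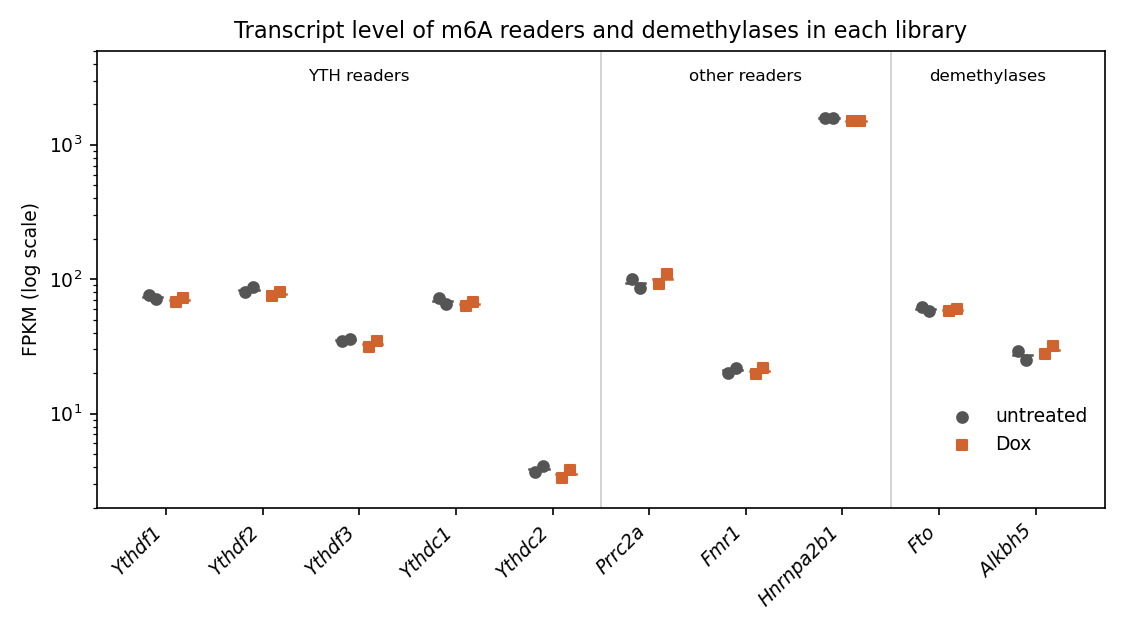
Transcript level in FPKM (log axis) of each of the 10 genes in the 2 untreated (circles) and 2 Dox (squares) libraries, with a short line at each group's mean. Levels run from 3.29 FPKM for Ythdc2 to 1585 FPKM for Hnrnpa2b1, and within each gene the groups lie close together.

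Ythdf1, Ythdf2 and Ythdf3 encode cytoplasmic readers that bind m6A in messenger RNA and recruit the CCR4-NOT deadenylase. Ythdf1 (ENSMUSG00000038848, chromosome 2, 180904377 to 180920949 in GRCm38) was at 75.8 and 71.8 FPKM untreated and at 67.6 and 72.7 FPKM with Dox. The groups overlapped, since the second Dox library lay between the untreated ones. Ythdf2 (ENSMUSG00000040025, chromosome 4, 132184912 to 132212303) was at 80.4 and 86.7 FPKM untreated and at 74.8 and 79.9 FPKM with Dox. Both Dox libraries were lower, the nearest pair by less than the gap between replicates. Ythdf3 (ENSMUSG00000047213, chromosome 3, 16183212 to 16217037) was at 34.7 and 35.6 FPKM untreated and at 31.01 and 34.45 FPKM with Dox. Its Dox libraries were also below the untreated ones, the second only just. The log2 fold changes on the log2(FPKM + 1) scale were -0.07 (95% interval -0.25 to 0.11) for Ythdf1, -0.11 (-0.29 to 0.08) for Ythdf2 and -0.10 (-0.30 to 0.10) for Ythdf3. Their adjusted p-values in limma were 0.605, 0.443 and 0.505, so none passed the threshold of 0.05.

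Ythdc1 encodes the nuclear reader, which takes part in splicing and export. It (ENSMUSG00000035851, chromosome 5, 86804221 to 86836659) was at 72.0 and 65.7 FPKM untreated and at 63.6 and 67.8 FPKM with Dox. The groups overlapped, and the gap between the untreated replicates exceeded the difference of the means. The log2 fold change was -0.07 (95% interval -0.26 to 0.13, adjusted p = 0.661 in limma). Ythdc2 encodes an RNA helicase with a YTH domain that is known for its role in meiosis of germ cells. It (ENSMUSG00000034653, chromosome 18, 44827746 to 44889724) was at 3.68 and 4.06 FPKM untreated and at 3.29 and 3.82 FPKM with Dox, with overlapping groups. Its log2 fold change of -0.10 had the widest interval among the members (-0.40 to 0.20, adjusted p = 0.681 in limma). At the fitted depth its lowest value stands for about 750 fragments, which gives a counting error of about 3.6% and is smaller than the replicate spread.

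Among the other readers, Prrc2a encodes a large proline-rich protein that has been described as an m6A reader in oligodendrocyte development. It (ENSMUSG00000024393, chromosome 17, 35149076 to 35164897) was at 99.5 and 86.4 FPKM untreated and at 92.0 and 110 FPKM with Dox. The highest and the lowest value fell in different groups, but the ranges overlapped. Fmr1 encodes FMRP, an RNA-binding protein of translation control in neurons. It (ENSMUSG00000000838, chromosome X, 68678541 to 68717963) was at 20.1 and 21.8 FPKM untreated and at 19.6 and 21.9 FPKM with Dox, so that the Dox libraries enclosed the untreated ones. Hnrnpa2b1 encodes a nuclear ribonucleoprotein of splicing and microRNA processing. It (ENSMUSG00000004980, chromosome 6, 51460932 to 51469894) was at 1568 and 1585 FPKM untreated and at 1501 and 1490 FPKM with Dox. The gap between these groups was wider than that between the replicates of either, at 1577 ± 12.6 against 1495 ± 7.73 FPKM (SD, n = 2 each). The log2 fold changes were 0.12 (95% interval -0.17 to 0.41) for Prrc2a, -0.02 (-0.24 to 0.21) for Fmr1 and -0.08 (-0.32 to 0.16) for Hnrnpa2b1, with adjusted p-values of 0.60, 0.937 and 0.689 in limma. For Hnrnpa2b1 the exact two-sided permutation p was 0.33, the smallest that 2 libraries against 2 allow. Its SE in limma, 0.0960 on the log2 scale, includes variance shared with other genes.

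The group means of the demethylases lay in opposite directions, each by less than the gap between the untreated replicates. Fto (ENSMUSG00000055932, chromosome 8, 91313525 to 91668439) was at 62.1 and 58.4 FPKM untreated and at 58.2 and 59.5 FPKM with Dox. Alkbh5 (ENSMUSG00000042650, chromosome 11, 60536381 to 60558512) was at 29.2 and 25.2 FPKM untreated and at 27.6 and 32.0 FPKM with Dox. The groups overlapped for both genes. Fto had the narrowest interval among the members, with a log2 fold change of -0.03 (-0.20 to 0.13) and an adjusted p of 0.822 in limma. Alkbh5 had the highest fold change, 0.13 (-0.15 to 0.40, adjusted p = 0.547 in limma).

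**Figure D2:**
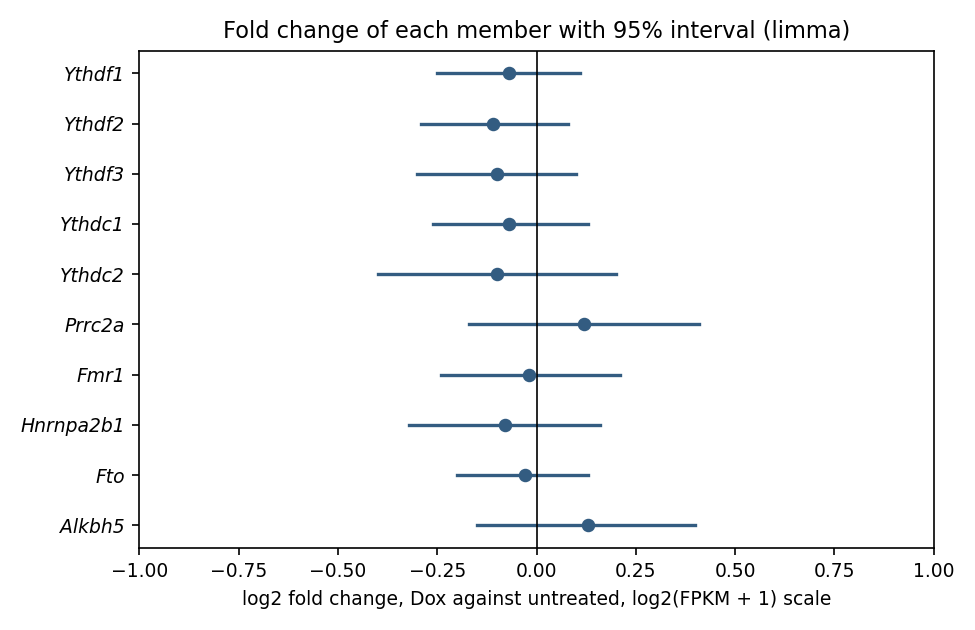
Log2 fold change of each of the 10 genes, Dox against untreated, on the log2(FPKM + 1) scale (points) with limma's 95% interval (lines). All 10 intervals include 0 and lie between -0.40 and 0.41.

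The members were then set against the whole table. All 10 had a mean of at least 1 FPKM and were tested, and 0 of 10 passed an adjusted p of 0.05 in limma, where 9.31% of the 13931 tested genes did. For 10 genes this share amounts to about 1 call, so the count does not set the members apart. At an unadjusted p below 0.05 the count was also 0 of 10, and it was 23.9% among all tested genes. Groups without overlap were found for 3 of the 10 (Ythdf2, Ythdf3 and Hnrnpa2b1, all lower with Dox), against 53.4% of all tested genes in either direction and 26.9% in the lower direction. The log2 fold change was negative for 8 of 10, which held for 50.8% of all tested genes, and with values rescaled to a common sum Fmr1 turned to 0.0064 and left 7. The median absolute log2 fold change was 0.0871 for the members and 0.133 for all tested genes. The median absolute log2 difference between replicates was 0.107 untreated and 0.126 with Dox for the members. For all tested genes it was 0.101 and 0.119. A fold change compares means of 2 libraries and a replicate difference compares single libraries, so their sizes are not like measures. The intervals set the limit of what these libraries show: the changes they leave possible reach 0.76-fold for Ythdc2 at the lower end and 1.32-fold for Prrc2a and Alkbh5 at the upper end. These values do not show that the levels were equal, and an interval is no statement that a change beyond it would have been called.

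**Figure D3:**
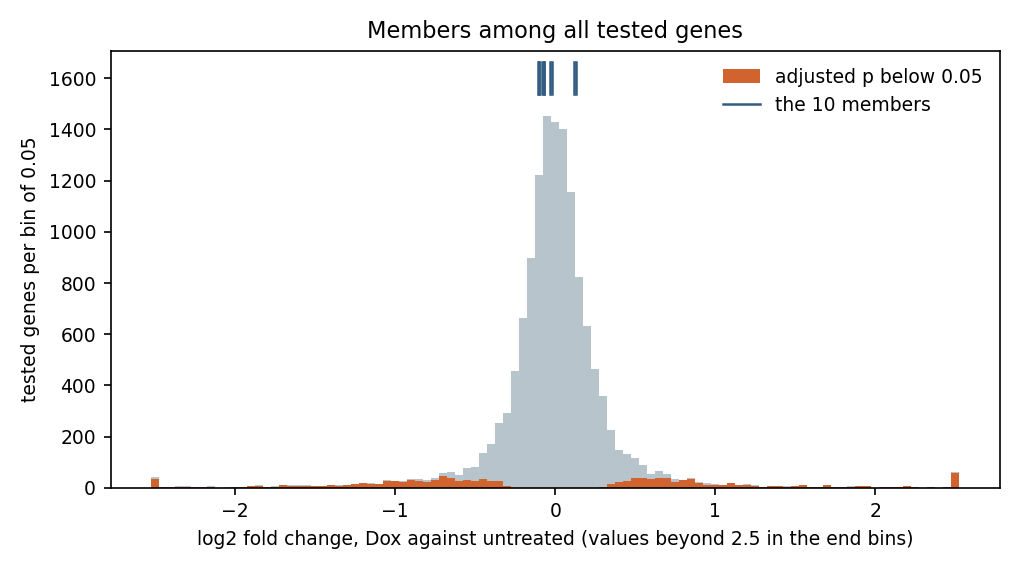
Log2 fold changes of the 13931 tested genes in bins of 0.05 (grey, with genes at an adjusted p below 0.05 in orange) and of the 10 readers and erasers (blue ticks above the bars). The ticks lie between -0.11 and 0.13, in the bulk of the distribution.

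The second Dox library was above the first for 9 of the 10 members, all but Hnrnpa2b1, which held for 55.5% of all tested genes. The FPKM values of these libraries summed to 793308 and 866239, respectively. Between the untreated libraries 5 members were higher in the first and 5 in the second. Without the first Dox library the log2 fold changes ranged from -0.08 for Hnrnpa2b1 to 0.25 for Prrc2a, and without the second from -0.18 for Ythdc2 to 0.02 for Alkbh5. The longest transcripts of Prrc2a and Alkbh5, the members with positive fold changes, had 60.6% and 50% GC. Those of Ythdf1 and Fto, with negative fold changes, had 49.1% and 48.1%. With each library's trend in GC content and length removed, the log2 fold changes of Prrc2a and Alkbh5 were 0.13 and 0.11. That setting was chosen after seeing the data, and a part of GC content in the members' values was not tested.

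Shares within families remove what a library shifts in all paralogues alike. Ythdf2 made up 42.1% and 44.7% of the summed FPKM of the 3 Ythdf readers untreated and 43.1% and 42.7% with Dox. Ythdf1 made up 39.7% and 37.0% untreated and 39.0% and 38.9% with Dox, and Ythdf3 17.9% to 18.4% in all 4 libraries. The mixture of the cytoplasmic readers therefore overlapped between the groups for each of the 3. Ythdc1 held 94.2% to 95.1% of the Ythdc1 and Ythdc2 sum. Fto held 68.0% and 69.8% of the demethylase sum untreated and 67.8% and 65.0% with Dox, so the ratio of Fto to Alkbh5 was 2.22 ± 0.133 untreated and 1.98 ± 0.177 with Dox (SD, n = 2 each). The groups did not overlap by this share, yet the nearest libraries differed by less than the replicates did, and the exact two-sided permutation p was 0.33.

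The wider families were treated in the same way. Fmr1 held 10.7% to 12.7% of the sum with its paralogues Fxr1 and Fxr2, with overlapping groups. Prrc2a held 47.0% and 47.8% of the Prrc2 sum untreated and 46.8% and 46.0% with Dox. Hnrnpa2b1 held 30.8% and 32.1% of the sum with Hnrnpa0, Hnrnpa1, Hnrnpa3 and Hnrnpab untreated, and 30.1% and 29.7% with Dox. For Prrc2a and Hnrnpa2b1 the Dox libraries were both lower, by 1.04 and 1.56 percentage points in the means, each with an exact two-sided permutation p of 0.33. Across the 8 shares tested in this way the design could not reach a smaller value. The nearest Prrc2a libraries differed by less than the replicates of either group, and the nearest Hnrnpa2b1 libraries by less than the untreated replicates. The level of Prrc2a itself had a mean of 93.0 FPKM untreated and 101 FPKM with Dox.

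**Figure D4:**
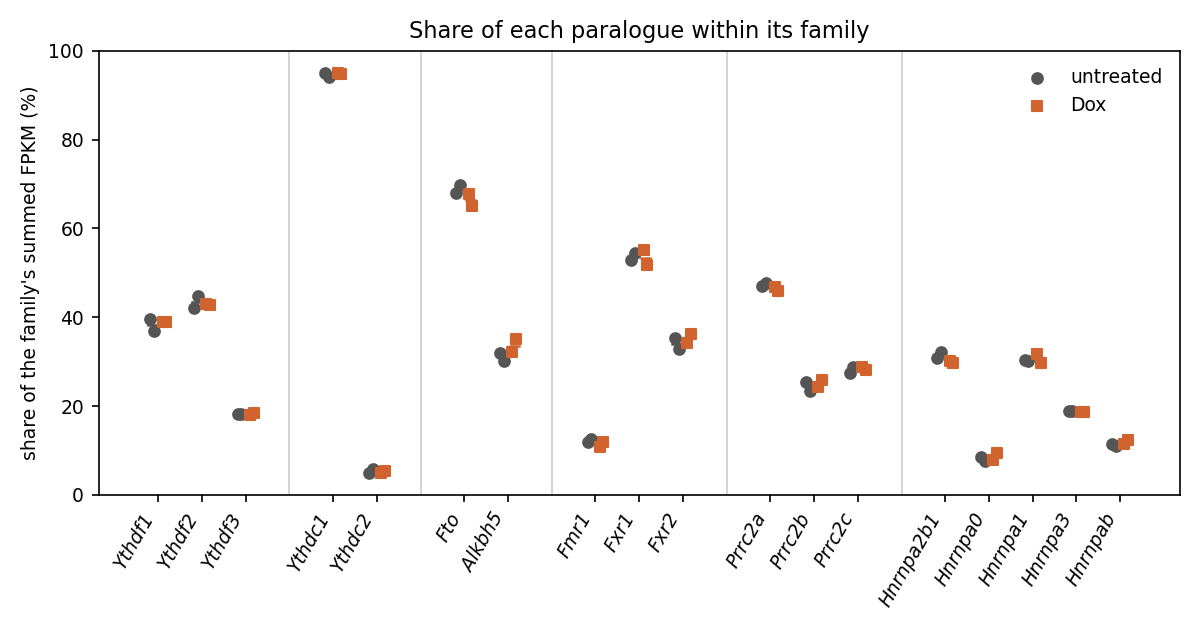
Share (percent) of each gene in the summed FPKM of its family, in the 2 untreated (circles) and 2 Dox (squares) libraries, as points. From left to right the families are the Ythdf readers, the Ythdc readers, the demethylases, and the FMRP, Prrc2 and hnRNP A/B families, and no mean share moved by more than 2.49 percentage points.

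Levels were also summed over the roles. The 5 YTH readers summed to 267 and 264 FPKM untreated and to 240 and 259 FPKM with Dox. Both Dox libraries were lower, the nearest pair by less than the gap between the Dox replicates (exact two-sided permutation p = 0.33). Among single tested genes, 53.4% had groups without overlap. The other readers, mostly Hnrnpa2b1, summed to 1687 and 1694 FPKM untreated and to 1612 and 1622 FPKM with Dox, a gap between groups wider than that between replicates (exact two-sided permutation p = 0.33). The demethylases summed to 91.3 and 83.6 FPKM untreated and to 85.8 and 91.5 FPKM with Dox, with overlapping groups. The ratio of YTH readers to demethylases was 3.04 ± 0.166 untreated and 2.81 ± 0.0183 with Dox (SD, n = 2 each), without overlap (exact two-sided permutation p = 0.33). Set against the catalytic core of the writer complex, Mettl3 and Mettl14 together stood at 0.665 and 0.677 of the demethylase sum untreated and at 0.742 and 0.723 with Dox. This ratio did not overlap between the groups (exact two-sided permutation p = 0.33). Within it, the Mettl3 value carries the uncertainty given above, and Mettl14 was at 19.5 ± 1.24 and 19.2 ± 0.948 FPKM (SD, n = 2 each).

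The rest of the pathway was taken from 5 lists: writers, further reader candidates, paralogues of the members, CCR4-NOT subunits and other partners of readers. Of their 69 genes 67 were tested, and 1 was higher and 0 were lower past the threshold in limma, which is 1.49% against 9.31% of all tested genes. At an unadjusted p below 0.05 in limma there were 11 of the 67, a smaller share than the 23.9% of all tested genes. The gene that rose was Igf2bp2, which encodes an RNA-binding protein known for stabilising m6A-marked transcripts, from 57.7 and 50.4 to 75.5 and 85.6 FPKM (log2 fold change 0.57, SE 0.0998, adjusted p = 0.0249 in limma). Both Dox libraries were above both untreated ones, but the call ended without the 1 FPKM filter (adjusted p = 0.120 in limma) and when any of the 4 libraries was left out, with adjusted p-values in limma of 0.0587 without the first and 0.142 without the second untreated library, and of 0.0738 and 0.146 without the first and second Dox library. Its paralogue Igf2bp3 was at 63.8 and 52.4 FPKM in the group means (log2 fold change -0.28, adjusted p = 0.0809 in limma) and Igf2bp1 at 33.9 and 42.1 FPKM (0.30, adjusted p = 0.198 in limma).

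None of the 13 writers passed in limma, where 1 higher and 1 lower gene had an unadjusted p below 0.05, against 23.9% of all tested genes. The higher one was Mettl3, whose value carries the uncertainty given above. The lower one was Rbm15, an adaptor that helps to place the complex on RNA, with group means of 18.6 and 14.1 FPKM (-0.38, adjusted p = 0.0792 in limma). The 15 paralogues had 0 calls and a median of 0.10, with Alkbh3 and Alkbh4, members of the AlkB oxygenase family like Alkbh5, at 0.25 and -0.23. Among the 13 CCR4-NOT genes, whose products shorten the tails of reader-bound transcripts, 0 were called and the median was 0.06. Among the 16 tested further partners, such as the splicing factors Srsf3 and Srsf10 that act with YTHDC1 and the export receptor Nxf1, 0 were called and the median was -0.01. At an unadjusted p below 0.05 in limma, the paralogues had 1 gene higher and 1 lower, and the CCR4-NOT and partner lists 1 higher each. Among all tested genes 23.9% reached this in either direction. The median over all tested genes was -0.0042. Meioc and Rbm46, known from germ cells with YTHDC2, were the 2 untested genes, below the filter of 1 FPKM.

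The genes most like a member in their pattern over the 4 libraries were sought for Ythdf2 and Ythdf3, which had the lowest unadjusted p-values. Likeness was the distance between log2(FPKM + 1) profiles after each gene's mean was removed. Nearest to Ythdf2 were Cpne3, Rictor and Cnot10, at distances of 0.00988, 0.0101 and 0.0134, against a median of 0.264 over all tested genes. Nearest to Ythdf3 were Cmtr1, Zfp60 and Tead3, at 0.00608, 0.00693 and 0.0177, against a median of 0.262. None of these 6 genes passed the threshold, with log2 fold changes from -0.11 to -0.08. With 4 libraries and so many genes, close matches of this kind are a description only.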

How the data were processed

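Poly(A) RNA of 4 organoid libraries, 2 untreated and 2 Dox, was sequenced in paired 150-base reads. The authors deposited FPKM values, 1 column per library, rounded to 2 decimals. STAR, Cuffdiff and mm10 are named, without versions, per the submitters' processing notes. The annotation and the strand setting are not given in the sources used here. mm10 is the GRCm38 assembly, so gene positions and sequences were taken from GENCODE M21 and RefSeq GRCm38.p6. Values were taken as log2(FPKM + 1), which understates the change of low genes. A mean of 1 FPKM or more was required, which 13931 genes met. Differences were fitted with limma 3.58.1 under R 4.3.3 (lmFit, eBayes with trend, no covariate, two-sided), with Benjamini-Hochberg adjustment over all of them and a threshold of 0.05. The test has 5.5 degrees of freedom, 3.5 of them from sharing variance between genes. Intervals are limma's 95% intervals. Family shares were tested by exact two-sided permutation (smallest p 0.33). The fit and the depth estimate were tested on simulated data.

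Depth was fitted from the steps of low FPKM values of single-transcript genes, and was 31700000 to 34900000 fragments per library. Between 77.2% and 79.6% of the low values came out within 0.1 of a whole fragment, against 11.0% to 11.4% at other depths. Fragment numbers of a gene use its longest annotated transcript and are approximate.

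The naming rule takes the 10 members, Mettl3, up to 6 called genes per list by lowest adjusted p, and the 3 genes nearest in profile to each of the 2 members with the lowest unadjusted p. A gene that this rule takes from a marker list is not reported here. The members and lists were chosen with earlier results of these data known. Other list genes named, the sums over roles, the genomic neighbours and the GC and length correction were added after the data were seen. Alternatives were pseudocounts of 0.1 and 5, no filter or 5 FPKM, TPM, median and quantile scaling, eBayes without trend or robust, the replicate number as a block, and each library left out.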

Additional observations from a re-analysis of the deposited data

How the results depend on the processing

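The count of 0 called members held in all 15 alternatives. Over these alternatives the members' log2 fold changes ranged from -0.18 to 0.25 and their adjusted p-values in limma from 0.199 to 0.997. Of 149 member values 5 changed sign, all near 0: Fmr1 after rescaling to TPM (0.0064), with untreated replicate 2 left out (0.04) and with Dox replicate 1 left out (0.06), Fto without untreated replicate 1 (0.01), and Prrc2a without Dox replicate 2 (-0.01). With 1 library left out the values ran from -0.09 to 0.06 for Fmr1, from -0.08 to 0.01 for Fto and from -0.01 to 0.25 for Prrc2a. Ythdc2 could not be tested with a minimum of 5 FPKM. Of 40 family share values 4 changed sign: without untreated replicate 2 those of Ythdf1 (-0.788 percentage points), Ythdf2 (0.804) and Ythdc1 (-0.267), and without Dox replicate 1 that of Ythdf3 (0.157). With 1 library left out the share differences ran from -0.788 to 1.95 for Ythdf1, -1.75 to 0.804 for Ythdf2, -0.369 to 0.157 for Ythdf3 and -0.267 to 0.693 for Ythdc1. Over all genes, 745 were called without a filter and 821 with a minimum of 5 FPKM, against 1297. Leaving out 1 library gave 593 to 697, in fits that assume the lone library to vary like the other group. The further reader candidates had 0 calls without a filter and 0 to 0 with 1 library left out. With the GC and length trend removed, a setting chosen after seeing the data, the writers had 1 call (Rbm15), the further reader candidates 2 (Igf2bp2 and Igf2bp3) and the other partners 1 (Pop1). The cause was not tested. A replicate block in the fit gave calls for 1134 genes and 0 members (lowest adjusted p of a member 0.642 in limma) and Igf2bp2 kept its call. Same-numbered libraries did not deviate together (r = -0.0435 across 13931 genes), so the numbers are not shown to pair them.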

Other observations

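The nearest tested protein-coding gene on each side of each member was looked up after the members' values were known, as a description of their surroundings. Of these 20 neighbours, 1 was higher and 3 were lower with Dox past the threshold in limma, which is 20.0% against 9.31% of all tested genes. Irx3, an Iroquois homeobox gene of neural patterning, lies 130 kb from Fto. It fell from 6.39 and 5.53 FPKM untreated to 1.75 and 1.4 FPKM with Dox (log2 fold change -1.44, adjusted p = 0.00260 in limma). On the other side of Fto, 0.263 kb away, Rpgrip1l, a gene of the ciliary transition zone, was at 6.02 and 5.36 FPKM untreated and at 6.82 and 4.06 FPKM with Dox (adjusted p = 0.851 in limma). The groups of Fto itself overlapped, as did those of Rpgrip1l, while both Dox libraries of Irx3 were below the untreated ones.

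Nkain4, next to Ythdf1, fell from 4.07 and 3.66 to 1.5 and 1.6 FPKM (adjusted p = 0.00817 in limma), and Fmr1nb, next to Fmr1, from 4.32 and 3.9 to 2.4 and 2.1 FPKM (adjusted p = 0.0295 in limma). Car2, a carbonic anhydrase gene 1282 kb from Ythdf3, rose from 3.8 and 3.42 to 6.04 and 5.55 FPKM (adjusted p = 0.0361 in limma). Cbx3, a heterochromatin protein gene that lies 0.466 kb from Hnrnpa2b1, was among the neighbours at a high level, with a mean of 210 FPKM in each group (SD 2.07 without and 14.3 with Dox, n = 2 each, adjusted p = 0.981 in limma). Each of the 4 called neighbours had all its values below 7 FPKM, while Fto, Ythdf1, Ythdf3 and Fmr1 beside them were all above 19 FPKM. Whether leaving out a library ends these calls was not tested.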
